A study of Mus musculus with 27 samples.

Results

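The genes described here are those that differed between livers of XX mice given Cre to delete Kdm5b that had gone through resolution and livers of such mice that were still on the diet. They were measured in 6 of the 27 livers of the series, picked by their labels, with 3 mice in each group and 1 library per mouse. All 6 mice were female Kdm5b fl/fl animals that received Cre recombinase from an adeno-associated virus under the CMV promoter, which is not restricted to a cell type, and are called KO. The WDA group (mice 1, 2 and 3 of experiment 11) was fed for 8 weeks on the Western diet while drinking alcohol in water, received AAV8-CMV-Cre according to the labels, and was taken on the diet. The resolution group (Res, mice 2, 3 and 4 of experiment 12) was fed the same diet for 16 weeks, received AAV-CMV-Cre just after alcohol withdrawal, and was taken after 4 weeks of resolution, which in the study meant chow and plain water. The study describes a surgical liver biopsy at the end of feeding in mice of the resolution design. Age was not in the labels. The study describes a common age at the start of feeding, so with the labelled lengths the Res mice would be older at harvest. The feeding before harvest on the diet is longer in the study's methods than in the labels of the WDA mice, and which of them holds for these mice is not settled here. Stage therefore coincided with experiment number, length of feeding, diet at harvest, time of Cre delivery, biopsy and probably age at harvest. These cannot be told apart. Mouse numbers only name the mice and do not pair them.

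KDM5B removes methyl groups from lysine 4 of histone H3, a mark of active promoters. A diet rich in fat, sugar and cholesterol taken with alcohol fills hepatocytes with lipid, raises the sterol content of the liver, and brings inflammation and fibrosis. The liver senses sterol in opposite ways. When sterol is scarce, SREBP2 moves to the nucleus and turns on cholesterol synthesis and uptake, and when oxysterols accumulate, LXR turns on sterol export and fatty acid desaturation.

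The targeted gene was checked first. Kdm5b (chromosome 1, 134560178 to 134632878, GRCm38.p6) was read at 12, 13 and 10.5 CPM in Res mice 2, 3 and 4 and at 23.8, 15.7 and 14.1 CPM in WDA mice 1, 2 and 3, where CPM is the TMM-scaled count relative to the library size. WDA mouse 1 was the highest of the 6, and without it 2292 genes were called in place of 2550. With all 27 libraries scaled together, its 24.1 CPM lay within the 21.5 to 31.2 CPM of WDA females given the control vector, while the Res KO mice (10.7 to 13.2 CPM) lay below the Res controls (16.6 to 17.4 CPM). The log2 difference of Kdm5b between Res and WDA was -0.59 (SE 0.199, adjusted p = 0.0613). It did not pass, although it did under 4 of 16 alternatives, DESeq2 among them. Of its relatives, Kdm5a rose (log2 0.41) and Kdm5c fell (log2 -0.49), both with adjusted p = 0.0441, but the call of Kdm5a was lost under 12 of 16 alternatives and that of Kdm5c under 7. Counts over the whole gene do not measure the deleted stretch alone. The 6 libraries held 16982524 to 18456586 counts, their 10 most abundant genes took 17.5% to 22.8% of a library, and Y-linked genes had at most 28 counts. The hepatocyte markers Apoa1, Ttr, Cps1 and Hnf4a did not pass, and 2 of 6 did: Alb, which encodes albumin, was read at 141510, 118370 and 121180 CPM in Res mice and 87075, 73929 and 66785 CPM in WDA mice (log2 0.74, adjusted p = 0.0193), and Serpina1a rose by 0.65. In whole liver, fewer cells of a type and less RNA per cell cannot be told apart.

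Resolution was accompanied by a broad change in these livers. Of 12470 genes tested with edgeR's quasi-likelihood test, 2550 (20.4%) had a Benjamini-Hochberg adjusted p under 0.05, of which 1273 (10.2%) were higher and 1277 (10.2%) lower in Res, and 709 changed by more than 2-fold, 418 up and 291 down. These shares of 10.2% in each direction are the background for every count of list members below. The median log2 difference over all genes was 0.01, and the groups did not overlap for 5058 genes (40.6%). The 12 highest and 12 lowest genes with non-overlapping groups, a mean of at least 2 in log2 CPM and a symbol that is not a predicted or clone name are marked in the plot of fold change against level. The highest were led by hydroxysteroid sulfotransferases, major urinary proteins and female Cyp3a genes, with the repressor Cux2, the chemokine Cxcl13, the clock repressor Ciart and the phosphatidate phosphatase Lpin1. The lowest were led by Scd1, the stearoyl-CoA desaturase, with the fatty acid elongase Elovl6, the keratin Krt23 and the leptin receptor Lepr. Without Res mouse 4, 2 or 3 the number of genes called was 1026, 1337 and 1624, and with libraries scaled by their totals it was 934 higher against 1699 lower, with 850 against 1607 for FPKM in limma.

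**Figure D1:**
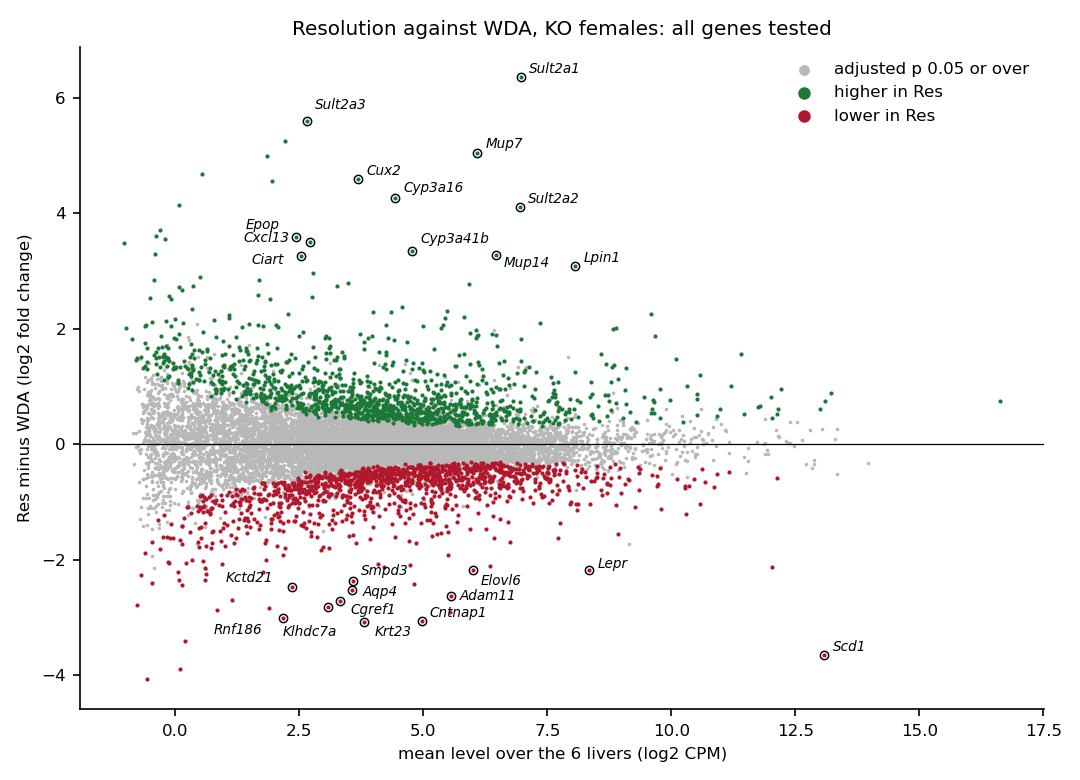
Log2 fold change of Res over WDA (y axis) against the mean level over the 6 livers in log2 CPM (x axis), 1 point per gene tested, with genes at adjusted p under 0.05 in green (1273 higher) and red (1277 lower) and the 12 highest and 12 lowest named genes ringed. Sult2a1 (log2 6.36) and Scd1 (log2 -3.65) mark the ends among the named genes.

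The genes of cholesterol synthesis rose nearly as a block. Of 24 tested members of the list of cholesterol synthesis and SREBP2 targets, 18 rose, 1 fell and 5 did not pass, with a median log2 difference of 0.98. Sqle, the squalene epoxidase, was read at 7.6, 7.2 and 6.85 CPM in Res mice 2, 3 and 4 against 0.171, 0.272 and 0.455 CPM in WDA mice 1, 2 and 3. Every Res liver was above every WDA liver. No WDA library reached 10 counts of Sqle, which passed the filter on low counts through the Res libraries alone, so no fold is given for it. Idi1, the isomerase that supplies both isoprenoid building blocks, was read at 32.8, 35.9 and 32.9 CPM against 6.0, 7.87 and 6.77 CPM (log2 2.30, SE 0.138, adjusted p = 0.000105). Cyp51, the lanosterol demethylase, was read at 32.9, 47.7 and 38.2 CPM against 7.42, 5.97 and 9.51 CPM (log2 2.38, SE 0.196, adjusted p = 0.000317). The groups stood well apart for both genes. Fdps, which makes farnesyl diphosphate, rose by 1.57 and Tm7sf2, a sterol reductase, by 1.39 on the log2 scale. The transcription factor Srebf2 rose by 0.84, and Insig1, which holds SREBPs in the endoplasmic reticulum, by 1.87. The block was not complete. Hmgcs1, the synthase that makes HMG-CoA, was read at 69.9, 116 and 83.6 CPM against 86.9, 86.5 and 87.4 CPM, with overlapping groups (log2 0.05, adjusted p = 0.858; the sign turned under 3 alternatives). Sc5d, which acts near the end of the pathway, fell by 0.63 on the log2 scale (adjusted p = 0.0236). Idi1, Cyp51, Fdps, Tm7sf2, Srebf2 and Insig1 passed under every alternative that tested them.

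Promoters of the members of this list, whether or not they rose, were read from RefSeq (GRCm38.p6). The list was drawn up from known function, and no link between its promoter letters and the changes was tested. Of the 24 tested members, 16 have an entry, and 15 of those 16 (93.8%) hold CCAAT, the box bound by NF-Y, on either strand in the 250 bases upstream of the start, all but Acat2. Over all genes tested with an entry the share was 40.7%, and 37.5% over all genes with a RefSeq promoter. The letters CACCCCAC, a form of the sterol element, were in 2 of 16 (Hmgcs1 and Acat2) and in 3.36% of tested genes. The windows of Idi1 (chr13:8885356-8885605, plus strand) and Cyp51 (chr5:4104698-4104947, minus strand) are shown because both genes rose over 4-fold, with the CCAAT letters of either strand in capitals.
Idi1: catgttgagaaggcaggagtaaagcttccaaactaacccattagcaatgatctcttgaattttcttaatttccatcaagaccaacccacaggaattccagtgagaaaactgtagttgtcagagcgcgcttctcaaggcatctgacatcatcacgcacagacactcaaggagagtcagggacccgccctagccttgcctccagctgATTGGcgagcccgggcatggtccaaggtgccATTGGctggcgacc
Cyp51: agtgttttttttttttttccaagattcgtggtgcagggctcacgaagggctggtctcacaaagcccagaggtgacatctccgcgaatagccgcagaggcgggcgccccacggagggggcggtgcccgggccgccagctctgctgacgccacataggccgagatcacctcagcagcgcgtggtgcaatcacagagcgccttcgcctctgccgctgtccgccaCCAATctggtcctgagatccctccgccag
The 2 boxes of Idi1 start 45 and 14 bases upstream of the gene and the box of Cyp51 29 bases upstream. A match of letters is a description and not a measured site.

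Fatty acid synthesis did not follow cholesterol synthesis. Of 22 tested lipogenic genes, 7 fell, 2 rose and 13 did not pass, with a median of -0.05. Scd1, which makes oleate, was read at 1503, 1028 and 1312 CPM in Res mice against 15997, 12311 and 19937 CPM in WDA mice, and no WDA liver came near the Res livers (log2 -3.65, SE 0.225, adjusted p = 0.000105, 12.6-fold lower). Elovl6, which elongates palmitate, was read at 23.5, 24.2 and 21.1 CPM against 109, 78.6 and 125 CPM (log2 -2.18, SE 0.169, adjusted p = 0.000317). Elovl5 (log2 -1.04), the pyruvate kinase Pklr (-0.89) and the acetyl-CoA carboxylase Acaca (-0.66) fell as well, without overlap. Fasn, the fatty acid synthase, was read at 135, 126 and 130.0 CPM against 155, 109 and 98.9 CPM, with Res livers inside the WDA range (log2 0.11, adjusted p = 0.657; without WDA mouse 3 the sign turned). Srebf1, which encodes the regulator of the pathway, was at log2 -0.31 (adjusted p = 0.459). The calls were in desaturation, elongation and carboxylation, and the synthase was not called. Among 23 tested genes of lipid droplets and storage, 4 rose and 4 fell (median -0.23). Lpin1, which makes diacylglycerol and acts as a nuclear coregulator, was read at 552, 161 and 722 CPM against 41.9, 65.1 and 62.6 CPM (log2 3.08, SE 0.456, adjusted p = 0.00312), and Lpin2 rose by 0.67. The droplet proteins Cideb (log2 -0.65), Cidec (-1.0) and Plin3 (-0.96) fell. Plin2, the main droplet coat of hepatocytes, was at log2 -0.52 (adjusted p = 0.128). The calls of Scd1, Elovl6, Elovl5 and Lpin1 held under all 16 alternatives.

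**Figure D2:**
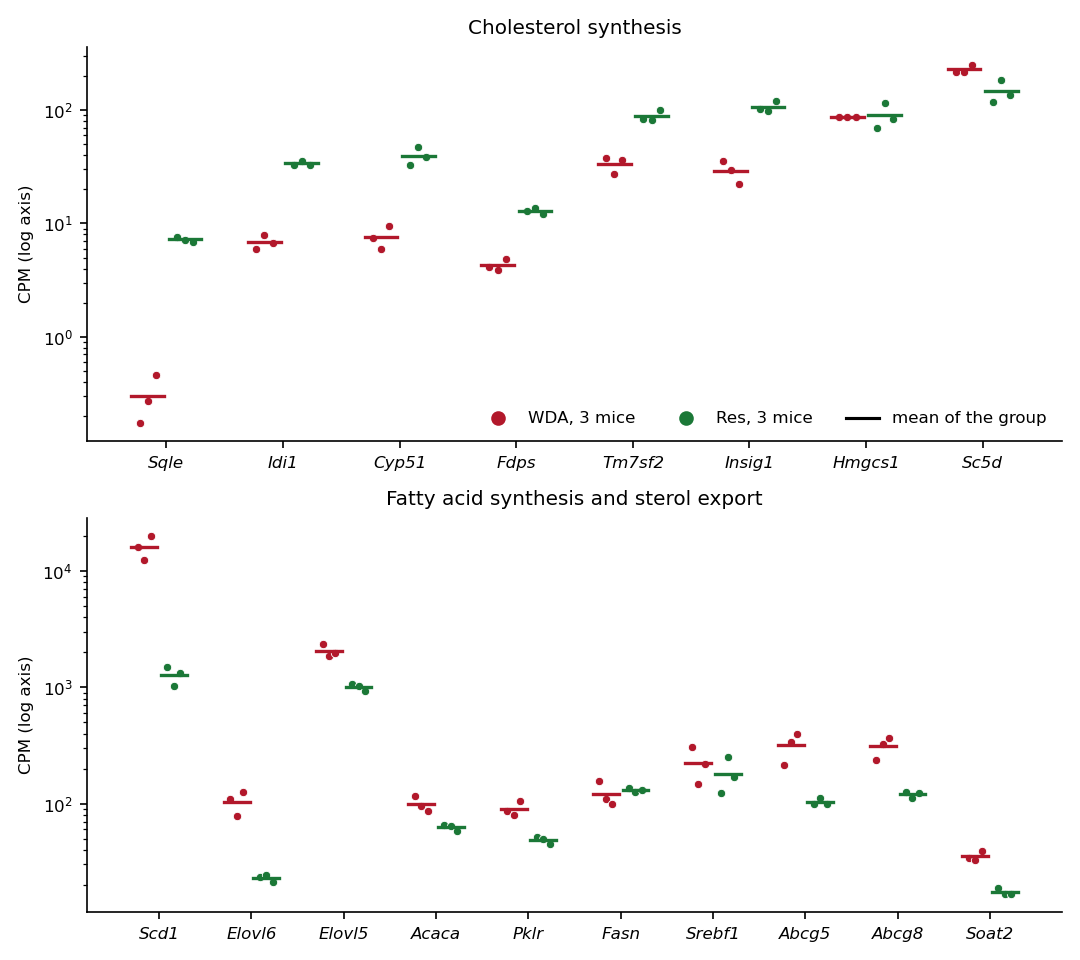
Level of each gene in each liver in CPM on a log axis, with WDA mice in red, Res mice in green and bars for the group means (3 mice each). Every gene from Sqle to Insig1 lies higher in each Res liver than in any WDA liver, whereas Hmgcs1, Fasn and Srebf1 overlap.

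Part of the genes that LXR is known to turn on fell after resolution. Of 19 tested LXR and sterol efflux genes, 8 fell, 1 rose and 10 did not pass (median -0.31). The partner transporters that export cholesterol into bile fell together: Abcg5 was read at 98.4, 111 and 99.7 CPM against 215, 339 and 399 CPM (log2 -1.62, SE 0.20, adjusted p = 0.00161). Abcg8 was read at 127, 112 and 123 CPM against 239, 326 and 368 CPM (log2 -1.37, SE 0.156, adjusted p = 0.00121). Their annotated spans on chromosome 17 overlap, and the sources used here give no strand setting, so reads in the shared stretch cannot be assigned. Soat2, which esterifies cholesterol, fell by 1.03, the lipoprotein lipase cofactor Apoc2 by 0.74, and Lpcat3, which remodels phospholipids, by 0.49 on the log2 scale. Abca1, which loads HDL, was read at 224, 218 and 197 CPM against 267, 309 and 455 CPM (log2 -0.69, adjusted p = 0.0262). Abcg1 and Apoc1, LXR targets in the study, did not pass (log2 -0.20, adjusted p = 0.546, and -0.22, adjusted p = 0.244). Apoe was at log2 -0.33 (adjusted p = 0.115). Abcg5, Abcg8 and Soat2 kept their call under all 16 alternatives.

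Genes of bile acid synthesis were called in both directions. Of 20 tested genes 2 (10%) rose and 4 (20%) fell, against 10.2% of all genes in each direction (median 0.01). Cyp27a1, which starts the acidic pathway and makes 27-hydroxycholesterol, was read at 455, 427 and 472 CPM against 220.5, 219.5 and 205 CPM, with narrow groups far apart (log2 1.07, SE 0.103, adjusted p = 0.000609). The oxysterol hydroxylase Cyp39a1 rose by 0.95. Cyp46a1, which makes 24-hydroxycholesterol, fell by 1.16, the sterol carrier Scp2 by 0.48, and the repressor Nr0b2 (SHP) by 0.86. The call of Nr0b2 was lost under 7 of 16 alternatives. Cyp7a1, the rate-limiting enzyme of the classic pathway, was read at 71.3, 128 and 53.4 CPM against 22, 70.6 and 60.2 CPM, with overlapping groups (log2 0.73, adjusted p = 0.228). Among 13 tested transporters of bile acids and organic ions, 4 fell and 0 rose (median -0.27), among them Slc22a7 (log2 -1.34), the uptake carrier Slco1b2 (-0.69) and the bile salt export pump Abcb11 (-0.58). Of 18 tested apolipoprotein genes, 2 rose and 4 fell (median -0.08). Apoa4, which rises with liver fat, was read at 2568, 1072 and 987 CPM against 6444, 7148 and 6729 CPM (log2 -2.13, SE 0.327, adjusted p = 0.0034). Cyp27a1, Cyp39a1 and Apoa4 passed under all 16 alternatives. Apob, the core protein of VLDL, was at log2 -0.27 (adjusted p = 0.142).

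Fat oxidation genes were called in either direction at shares near the background in the upward direction (3 of 36) and above it in the downward direction (7 of 36, median -0.09). The ketone dehydrogenase Bdh1 was read at 164, 169.5 and 150.3 CPM against 415, 299 and 284 CPM (log2 -1.04, SE 0.152, adjusted p = 0.00293). Ppara, the receptor that drives the program, fell by 0.76 and the peroxisomal thiolase Acaa1b by 0.73, while the lipase inhibitor Angptl4 rose by 0.43. The calls of Ppara and Angptl4 were lost under 7 and 8 of 16 alternatives. Cpt1a, the entry point of mitochondrial oxidation, was at log2 -0.30 (adjusted p = 0.114). Of 17 tested genes for the breakdown of alcohol and acetaldehyde, 4 fell and 0 rose (median -0.01). Adh1, the main alcohol dehydrogenase of liver, was read at 1135, 1035 and 1168 CPM against 1396, 1778 and 1892 CPM (log2 -0.60, SE 0.139, adjusted p = 0.0169). Adh4 fell by 0.65, the fatty aldehyde dehydrogenase Aldh3a2 by 0.73 and mitochondrial Aldh1b1 by 0.62. The calls of Adh4 and Aldh1b1 were each lost under 7 of 16 alternatives. Cyp2e1, the ethanol-inducible cytochrome, was at log2 0.27 (adjusted p = 0.183).

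Steroid sulfotransferases and other genes with a sex-biased level in liver made up most of the 12 highest genes. In rodents the pattern of growth hormone release sets many of these genes, Cux2 being a repressor with a female-biased level. Of 39 tested genes of the growth hormone and sex-biased list, 15 rose and 5 fell (median 0.60), and of 25 sulfotransferases and UDP-glucuronosyltransferases 8 rose and 2 fell (median 0.25). Sult2a1 (chromosome 7, 13796246 to 13837410) was read at 139, 426 and 173 CPM against 1.14, 6.46 and 1.25 CPM (log2 6.36, SE 0.673, adjusted p = 0.000877). Its neighbours Sult2a2 (log2 4.11) and Sult2a3 rose with it, and the 3 sequences are near copies, so the split of reads among them is uncertain. Sult2a3 did not reach 10 counts in every library, so no fold is given for it. Sult3a1 was read at 48, 63.7 and 41.6 CPM against 12.3, 10.5 and 14.5 CPM (log2 2.04, SE 0.183, adjusted p = 0.000415). Sult1c2 went the other way (log2 -1.42). Cux2 was read at 38.9, 8.92 and 25.5 CPM against 0.457, 1.85 and 0.683 CPM, so that the lowest Res liver was above every WDA liver although the Res livers spread widely (log2 4.59, SE 0.597, adjusted p = 0.00193). The Cyp3a genes of this group, which also lie side by side and share sequence, rose: Cyp3a16 (log2 4.27), Cyp3a41b (3.35), Cyp3a44 (2.02) and Cyp3a41a (1.87). In the wider list of Cyp2, Cyp3a and xenobiotic oxidation, 10 of 35 rose and 5 fell (median 0.04), and Cyp2b9, another female-biased cytochrome, fell from 828, 898 and 785 CPM in WDA mice to 363, 443 and 370.0 CPM in Res mice (log2 -1.10, SE 0.122, adjusted p = 0.00105). The major urinary proteins, whose genes are near copies and are more abundant in males, also rose, with Mup7 at 254, 92.9 and 47.4 CPM against 3.08, 3.8 and 4.95 CPM (log2 5.05, SE 0.585, adjusted p = 0.00123) and Mup14 at log2 3.29. Genes biased toward either sex were therefore among those that rose. Of the signaling genes, Socs2, a feedback inhibitor induced by growth hormone, was read at 88.9, 28.4 and 86.4 CPM against 13.8, 19.8 and 15 CPM, with Res mouse 3 close to the WDA livers (log2 2.06, SE 0.367, adjusted p = 0.00583). Igf1 rose by 0.71, and Stat5b, which carries the growth hormone signal, fell by 0.50.

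The clock genes moved as well. Of 13 tested clock output genes 8 rose and 0 fell (median 0.61), and of 16 genes of the core loop 6 rose and 2 fell (median 0.30). Ciart, a repressor of CLOCK and BMAL1, was read at 7.14, 10.6 and 13.3 CPM against 1.2, 0.923 and 1.08 CPM (log2 3.27, SE 0.276, adjusted p = 0.000317). Per1 was read at 93.9, 90.8 and 129 CPM against 40.5, 23.7 and 22.9 CPM (log2 1.85, SE 0.229, adjusted p = 0.00162). Both genes were apart in every liver. Cry1 rose by 1.08, the casein kinase Csnk1e by 1.01 and Arntl, which encodes BMAL1, by 0.57, while Npas2 fell by 1.25 and the repressor Nr1d1 (REV-ERB alpha) by 1.08. Of the outputs, Nampt (log2 1.05), which makes NAD, Wee1 (1.28), the deadenylase Noct (1.65) and Tef (0.61) rose. Dbp, a rhythmic output gene, was read at 3.4, 3.6 and 5.08 CPM against 4.45, 4.67 and 4.95 CPM (log2 -0.22, adjusted p = 0.476). The hour of harvest is not given in the sources used here, and its part in these values was not tested. Ciart, Per1, Cry1, Nampt and Wee1 passed under all 16 alternatives. The E-box CACGTG, the element read by CLOCK and BMAL1, was in the upstream 250 bases of 4 of 12 output genes with an entry (33.3%), in 3 of 12 core genes (25%) and in 9.87% of all genes tested. The windows of Ciart (chr3:95882229-95882478, minus strand) and of the Per1 start that holds the box (chr11:69098699-69098948, plus strand) are shown with it in capitals.
Ciart: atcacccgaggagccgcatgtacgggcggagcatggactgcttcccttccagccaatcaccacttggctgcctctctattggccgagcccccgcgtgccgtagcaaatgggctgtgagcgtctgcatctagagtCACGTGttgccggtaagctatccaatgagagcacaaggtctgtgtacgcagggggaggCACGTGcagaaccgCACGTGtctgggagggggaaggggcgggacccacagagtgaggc
Per1: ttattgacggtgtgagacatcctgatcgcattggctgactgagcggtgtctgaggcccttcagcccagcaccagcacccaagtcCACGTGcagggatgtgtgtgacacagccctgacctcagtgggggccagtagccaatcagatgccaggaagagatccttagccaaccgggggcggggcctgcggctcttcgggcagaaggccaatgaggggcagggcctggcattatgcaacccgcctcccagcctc
Ciart holds 3 copies, which start 116, 58 and 44 bases upstream, and Per1 holds 1, which starts 166 bases upstream.

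Genes of glucose and amino acid handling changed in opposite directions by step. Of 33 tested genes of glycolysis and gluconeogenesis, 8 rose and 10 fell (median -0.13). Glucose entry through Slc2a2 (log2 -0.80) and the gluconeogenic phosphatase Fbp1 (-0.72) fell, and Pfkfb3, which makes the activator of glycolysis, rose (1.01). Pck1 was at log2 0.44 (adjusted p = 0.0644) and G6pc at 0.18 (adjusted p = 0.498), so the best known steps of glucose output were not called. Of 30 tested genes of the urea cycle and amino acid breakdown, 9 rose and 4 fell (median 0.23). Tdo2, which breaks down tryptophan, was read at 1939, 2194 and 2252 CPM against 829, 1001 and 949 CPM, with groups far apart (log2 1.20, SE 0.126, adjusted p = 0.000858). The serine dehydratase Sds rose by 1.26, the proline dehydrogenase Prodh by 0.95 and the lysine enzyme Aass by 0.74, whereas Agxt, which detoxifies glyoxylate, fell by 1.03. Tdo2, Fbp1 and Agxt passed under all 16 alternatives.

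Stress genes separated into those that rose and those that fell. Of 25 tested immediate early and stress factors, 11 rose and 0 fell (median 0.88). Jun was read at 71.5, 86.4 and 118 CPM against 27.1, 10.6 and 22.3 CPM (log2 2.20, SE 0.305, adjusted p = 0.00246). The phosphatase Dusp1 (log2 1.92), the antiproliferative gene Btg2 (1.70), the cell cycle inhibitor Cdkn1a (1.24) and Klf6 (1.07) rose with it, and Fos was read at 4.49, 7.77 and 12.7 CPM against 3.31, 4.56 and 3.81 CPM with groups that overlapped slightly (log2 1.09, adjusted p = 0.0439). Of these genes, the call of Dusp1 held under all 16 alternatives, and that of Fos was lost under most of them. In contrast, of 30 tested genes of endoplasmic reticulum stress and folding, 8 fell and 1 rose (median -0.32). The sensor Ern1 (IRE1) fell by 0.82, the degradation factor Derl3 by 2.87, and the folding proteins Pdia6 and Calr by 0.56 and 0.63, while the transcription factor Atf4 rose by 0.61. Hspa5 (BiP), the usual marker of this stress, was at log2 -0.45 (adjusted p = 0.134). Of 19 cytosolic heat shock genes, 5 fell and 0 rose (median -0.27), led by the inducible chaperone Hspa1b at 1.32, 0.343 and 0.939 CPM against 7.82, 6.3 and 4.72 CPM (log2 -2.84, SE 0.369, adjusted p = 0.00193) and by Chordc1 (log2 -1.44). Among 27 glutathione transferase and NRF2 genes, 4 rose and 6 fell (median -0.10). Nfe2l2, which encodes NRF2, was read at 16.7, 21.4 and 22.7 CPM against 31.6, 60.1 and 58.6 CPM (log2 -1.31, SE 0.231, adjusted p = 0.00569), and its target Nqo1 was at log2 -0.10 (adjusted p = 0.652).

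Secreted proteins of the acute phase and genes of metal handling had members called in both directions. Of 27 acute phase genes 5 rose and 1 fell (median 0.25). The serpin Serpina3k was read at 7109, 5647 and 6201 CPM against 2580, 3503 and 3659 CPM (log2 0.96, SE 0.166, adjusted p = 0.00511), and haptoglobin (Hp) rose by 1.02. Crp fell by 0.65, and Saa1 was at log2 1.17 (adjusted p = 0.09) with overlapping groups. Of 22 genes of iron and metal handling, 6 rose and 4 fell (median 0.09). The metallothionein Mt1 was read at 1452, 1153 and 1244 CPM against 463, 133 and 209.9 CPM (log2 2.26, SE 0.375, adjusted p = 0.00448). Hamp, the hepcidin hormone that lowers iron uptake, rose by 1.47 and the zinc exporter Slc30a1 by 0.70, whereas the zinc importer Slc39a4 fell by 0.70 and the manganese exporter Slc30a10 by 0.61. Mt1 and Slc39a4 passed under all 16 alternatives, and reads of the metallothionein copies cannot be told apart with certainty.

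**Figure D3:**
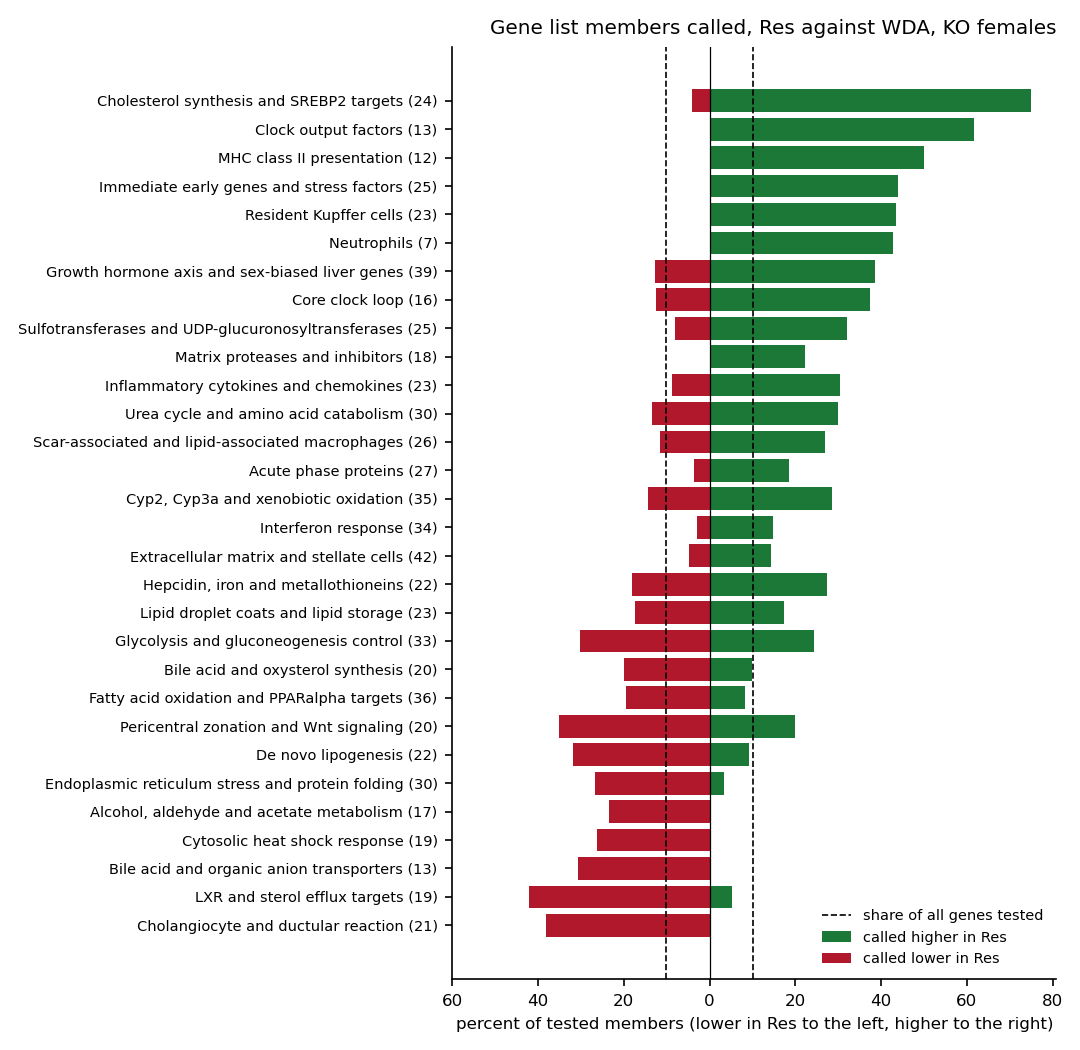
Share of the tested members of each gene list (number in brackets) called higher in Res (green, to the right) or lower (red, to the left), in percent, with the share of all genes tested in each direction (10.2%) as dashed lines. Cholesterol synthesis reaches 75% to the right, and LXR targets reach 42.1% to the left.

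Some genes of resident macrophages rose. Of 23 tested Kupffer cell genes, 10 rose, 0 fell and 13 did not pass, and all 23 had a log2 difference above 0 (median 0.59). Their summed level was 1273 to 1550 CPM in Res livers and 910 to 1158 CPM in WDA livers, without overlap. Marco, a scavenger receptor, was read at 57.3, 15.3 and 19.2 CPM against 6.4, 7.44 and 7.97 CPM (log2 2.07, SE 0.438, adjusted p = 0.0122), with Res mouse 2 far above the others. The complement genes C1qb (log2 0.70) and C6 (0.95) rose in every Res liver over every WDA liver, and Clec4f, the defining marker, was at 0.37 (adjusted p = 0.191). Of 12 MHC class II genes 6 rose and 0 fell (median 0.71), with the invariant chain Cd74 at 140.0, 152 and 127 CPM against 95.9, 72.4 and 80.4 CPM (log2 0.75, SE 0.13, adjusted p = 0.00517). The costimulator Cd80 rose as well but did not reach 10 counts in every library, so no fold is given for it. Of 26 genes of scar- and lipid-associated macrophages, 7 rose and 3 fell (median 0.33), and 18 had a log2 difference above 0. The sum of the list was lower in Res livers (15350 to 15910 CPM) than in WDA livers (17830 to 20500 CPM) without overlap. Its most abundant members set this sum, which lies near the level of Apoe alone (mean log2 CPM 13.97, log2 -0.33, adjusted p = 0.115). The sum is therefore no measure of these macrophages. Trem2, which defines these cells, was read at 1.09, 1.54 and 1.44 CPM against 0.228, 0.652 and 0.228 CPM. It passed the filter on low counts through the Res libraries, so no fold is given for it. Lpl fell by 0.93 and Cd63 by 0.83.

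Chemokines and markers of other leukocytes were mostly at low levels. Of 23 cytokine and chemokine genes 7 rose and 2 fell (median 0.31). Cxcl13, which draws B cells, was read at 19.4, 8.29 and 8.12 CPM against 0.742, 1.57 and 0.797 CPM (log2 3.51, SE 0.429, adjusted p = 0.00155). Ccl5 (log2 1.94), Cxcl9 (1.83) and Ccl6 (1.04) rose, and Il1b was at -0.85 (adjusted p = 0.173). Ccl4 also rose but did not reach 10 counts in every library, so no fold is given for it. The neutrophil genes S100a8 and S100a9 were read at 7.66, 1.94 and 6.69 and 9.5, 3.32 and 6.85 CPM against 1.03, 0.326 and 0.911 and 3.03, 0.76 and 1.02 CPM (log2 2.84 and 2.03). The whole neutrophil list had 3 of 7 tested members higher and a sum of 17.5 to 37.1 CPM against 6.49 to 16.1 CPM. The list of T, B and NK cells had 3 of 17 higher (Jchain, Cd79b and Cd28) and sums of 17.1 to 32.7 CPM against 11.8 to 18.9 CPM, which overlap. The call of Cd28 was lost under 10 of 15 alternatives. In the interferon list 5 of 34 (14.7%) rose and 1 fell (median 0.22), against 10.2% of all genes in each direction. Of the markers of blood, the haemoglobin genes Hbb-bs and Hba-a2 were at log2 0.59 and 0.56 (adjusted p = 0.0445 and 0.0489), with overlapping groups and both calls lost under 9 of 16 alternatives. The list of red cell, fat, pancreas and muscle markers summed to 421 to 690 CPM in Res livers against 330 to 437 CPM in WDA livers, which overlap, with 2 of 7 tested members higher, 1 lower (Cfd) and Adipoq at 0 or 1 count. The part of blood in the leukocyte values was not tested.

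The genes of scar matrix did not move as a group. Of 42 tested genes of matrix and stellate cells 6 rose and 2 fell (median 0.05). Col1a1, the main scar collagen, was read at 2.82, 4.92 and 3.04 CPM in Res mice against 3.6, 2.23 and 3.59 CPM in WDA mice (log2 0.20, adjusted p = 0.653), and Col1a2 at 10.6, 11 and 9.62 CPM against 10.5, 9.94 and 10.4 CPM (log2 0.02, adjusted p = 0.92). Both sets of livers overlapped, and the sign of each turned in some alternatives. Acta2, the marker of activated stellate cells, was read at 0.691, 1.43 and 2.93 CPM against 5.43, 1.68 and 3.87 CPM (log2 -1.11, adjusted p = 0.146). Col15a1, a basement membrane collagen, fell from 12.4, 9.4 and 10.1 CPM to 4.15, 4.06 and 2.27 CPM (log2 -1.61, SE 0.234, adjusted p = 0.00293), while Pdgfra (log2 0.79), Reln (0.56), Vim (0.52) and Ecm1 (0.43) rose. The calls of Reln, Vim and Ecm1 were lost under 6, 7 and 10 of 16 alternatives. Of 18 matrix proteases and inhibitors 4 rose and 0 fell (median 0.32). Timp1, the inhibitor measured in the study, had too few counts to be tested, as did Mmp13. Timp1 had 7, 6 and 4 counts in Res mice 2, 3 and 4 against 2, 4 and 3 in WDA mice 1, 2 and 3. Timp3, an inhibitor, was read at 53.8, 55.3 and 66.5 CPM against 26.8, 31.6 and 27.6 CPM (log2 1.03, SE 0.124, adjusted p = 0.00141), and the neutrophil collagenase Mmp8 at 1.27, 0.743 and 1.49 CPM against 0.171, 0.109 and 0.0569 CPM. Each WDA library held 1 to 3 counts of Mmp8, which passed the filter on low counts through the Res libraries alone, so no fold is given for it. Of 29 endothelial genes 4 rose and 0 fell (median 0.29), against 10.2% of all genes in each direction. The VEGF receptors Flt1 (0.67) and Flt4 (0.75) were among those that rose. Their calls were each lost under 5 of 16 alternatives.

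Part of the cholangiocyte and ductular list fell, namely keratins, annexins and S100 genes, which are not restricted to duct cells and which hepatocytes can express as well. Of 21 tested members of the cholangiocyte and ductular list 8 fell and 0 rose (median -0.07), and the list summed to 529 to 593 CPM in Res livers against 802 to 890 CPM in WDA livers. Krt23 was read at 2.02, 3.37 and 3.43 CPM against 19.3, 14 and 41.4 CPM (log2 -3.08, SE 0.401, adjusted p = 0.00193). Anxa2 was read at 7.89, 7.83 and 4.97 CPM against 37.5, 24.6 and 27.9 CPM (log2 -2.12, SE 0.216, adjusted p = 0.000717). Anxa5 (log2 -0.85), S100a10 (-0.99) and Krt18 (-0.82) fell without overlap. The defining markers of duct cells were not called: Krt19 had at most 10 counts in each library, Epcam was at log2 0.83 (adjusted p = 0.0907) and Sox9 at 0.73 (adjusted p = 0.195). In the cytoskeletal list, 5 of 24 fell and 1 rose (median -0.05), with Krt8 at log2 -0.76 and Tuba1a at -0.88. The call of Tuba1a was lost under 7 of 16 alternatives.

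**Figure D4:**
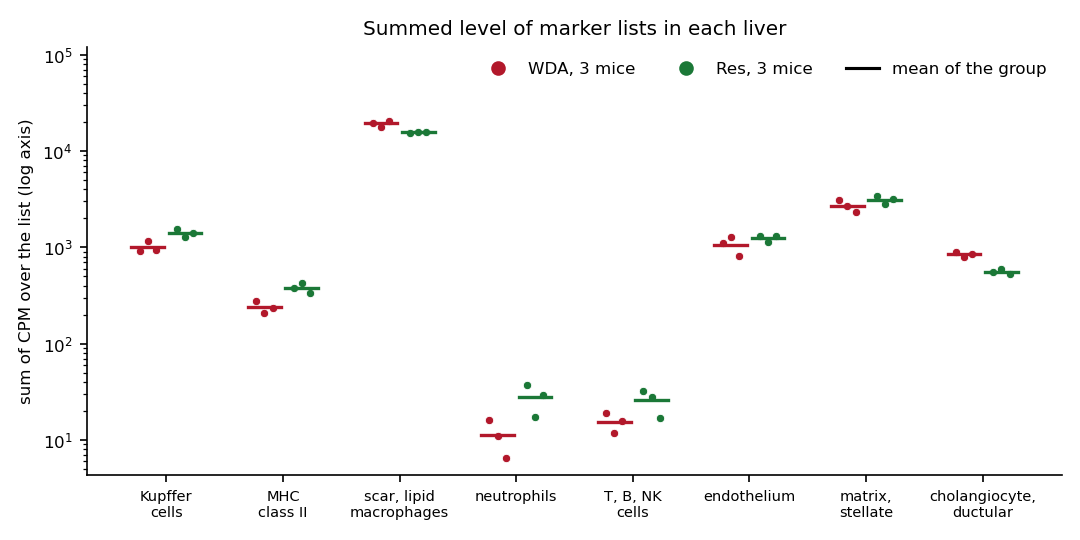
Summed CPM of the tested members of 8 marker lists in each liver on a log axis, with WDA mice in red, Res mice in green and bars for the group means (3 mice each). The Kupffer cell, MHC class II and neutrophil sums are higher and the cholangiocyte and scar- and lipid-associated macrophage sums lower in Res without overlap. The lymphocyte, endothelial and matrix sums overlap. The most abundant members set the scar- and lipid-associated macrophage sum, which is no measure of those cells. The cholangiocyte list had a median log2 difference of -0.07 and its defining markers were not called, so its sum is no measure of duct cells.

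Wnt signaling from the central vein sets the pericentral program, and of 20 tested pericentral and Wnt genes 4 rose and 7 fell (median 0.05). Tbx3 was read at 16.4, 13.8 and 13.4 CPM against 26.4, 37.8 and 27.9 CPM (log2 -1.08, SE 0.162, adjusted p = 0.00328). Rnf43, a Wnt feedback inhibitor, fell by 1.36 and Axin2, a known target of the pathway, by 0.66, whereas Tcf7 rose by 1.23 and the pericentral enzyme Cyp1a2 by 0.89. Glul, glutamine synthetase, was at log2 0.24 (adjusted p = 0.249). Of 17 periportal genes 5 rose and 2 fell (median 0.40), with the glutaminase Gls2 (0.73), Pigr (0.87) and the urea cycle enzyme Ass1 (0.66) among those that rose. Of 29 cell cycle genes 4 rose and 1 fell (median 0.10), against 10.2% of all genes in each direction. Ccnd1, cyclin D1, was read at 36.5, 39.8 and 16.6 CPM against 101, 58.9 and 57.7 CPM (log2 -1.23, SE 0.314, adjusted p = 0.0238), and the nucleotide enzymes Rrm2 and Tk1 rose by 0.97 and 0.95.

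Several of the genes that changed most belong to none of these programs. Epop, a cofactor of the Polycomb complex, was read at 10.7, 6.74 and 11.8 CPM against 0.628, 0.434 and 1.37 CPM (log2 3.59, SE 0.366, adjusted p = 0.000717). Cntnap1, known from the junction of axon and glia, was read at 8.93, 6.34 and 4.64 CPM against 65.9, 58.4 and 42.2 CPM (log2 -3.06, SE 0.243, adjusted p = 0.000317). In both, every Res liver was several-fold away from every WDA liver. Adam11, a member of the ADAM family without protease activity, was read at 10.5, 13.9 and 14.7 CPM against 96, 81.6 and 64.4 CPM (log2 -2.63, SE 0.179, adjusted p = 0.000169). The water channel Aqp4 was read at 3.0, 4.8 and 2.65 CPM against 17.9, 21.3 and 20.8 CPM (log2 -2.52, SE 0.214, adjusted p = 0.000317). Lepr, the leptin receptor, was read at 190.2, 40.9 and 122 CPM against 561, 479.8 and 558 CPM, and its WDA livers were close together while the Res livers ranged widely (log2 -2.18, SE 0.419, adjusted p = 0.00833). The ubiquitin ligase Rnf186 (log2 -3.01), Klhdc7a (-2.82), Cgref1 (-2.72), Kctd21 (-2.47) and the sphingomyelinase Smpd3 (-2.37) also fell. The 24 genes at the ends passed under every alternative that tested them.

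The same contrast was set beside control females (WT, AAV8-control) and KO males, which share no library with it but share the split of experiments. No gene was called in WT females (12603 tested, smallest adjusted p = 0.184, 1716 at unadjusted p under 0.05, 387 called by DESeq2) or in KO males (12747 tested, smallest adjusted p = 0.0574, 819 at unadjusted p under 0.05, 79 called by DESeq2). The spread between mice was larger there, with a common biological coefficient of variation of 0.321 and 0.296 against 0.15 in KO females. Single libraries weighed on this: without WDA mouse 7 of the WT females 2961 genes were at unadjusted p under 0.05, 15 were called and the coefficient was 0.237, and without WDA mouse 17 of the KO males the values were 1569, 10 and 0.22. These libraries had 13286 and 13459 genes with at least 10 counts, against 12247 to 12529 in KO females. A difference in calls is therefore no difference in response, and the response itself was tested as an interaction. None of 12940 genes (0%) passed for genotype by stage in females (smallest adjusted p = 0.782, 804 at unadjusted p under 0.05, 1 called by DESeq2), and none of 13036 (0%) for sex by stage in KO mice (smallest adjusted p = 0.104, 1030 at unadjusted p under 0.05, 91 called by DESeq2). In simulated data of this size the interaction test recovered 77 of 100 genes changed by 2 and 20 of 100 changed by 1 on the log2 scale for genotype, and 84 and 23 of 100 for sex. The simulated libraries held no outlying mouse, so recovery in the real data may be lower.

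Of the genes called in KO females and tested in the others, 86.8% had the same sign in WT females and 80.6% in KO males, against 68.5% and 65.9% of all genes. Scd1 was at log2 -3.65 in KO females, -4.02 (SE 0.502) in WT females and -2.98 (SE 0.441) in KO males. Idi1 was at 2.30, 2.42 and 1.52, and Abcg5 at -1.62, -1.74 and -1.82. The median of the cholesterol synthesis list was 0.98 in KO females, 0.83 in WT females and 0.47 in KO males. For the Kupffer list the medians were 0.59, 0.13 and 0.12, for MHC class II 0.71, -0.32 and -0.20, and for scar- and lipid-associated macrophages 0.33, -0.67 and -0.62, with no test of these differences. These medians moved when 1 mouse was left out. Without WDA mouse 7 the WT female medians were 0.85 for MHC class II, 0.86 for scar- and lipid-associated macrophages and 0.34 for the Kupffer list. Without WDA mouse 17 the KO male medians were 0.28, 0.37 and 0.16. Over all mice left out in turn, the WT female medians ranged from -0.72 to 0.85, -1.59 to 0.86 and 0.0071 to 0.36. In KO males they ranged from -0.48 to 0.28, -0.95 to 0.37 and -0.11 to 0.305. For cholesterol synthesis the medians without WDA mouse 7 and WDA mouse 17 were 0.80 and 0.48, and the ranges were 0.47 to 1.01 and 0.36 to 0.54. Some single genes had low unadjusted interaction p-values, and 4 are given here that were chosen after their values were seen. Kctd21 was at log2 -2.47 in KO females and 0.09 in WT females (difference -2.56, SE 0.474, unadjusted p = 0.000177, adjusted p = 0.782; DESeq2 gave adjusted p = 0.00942). Socs2 was at 2.06 and -0.09 (difference 2.15, SE 0.492, unadjusted p = 0.000966, adjusted p = 0.782). Slc30a10, the manganese exporter, was at -0.61 in KO females and 1.15 in KO males (difference -1.77, SE 0.243, unadjusted p = 8e-06, adjusted p = 0.104). The clock gene Dbp was at -0.22 and -3.78 (difference 3.55, SE 0.699, unadjusted p = 0.000251, adjusted p = 0.18). None of these 4 differences passed edgeR's test over all genes.

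**Figure D5:**
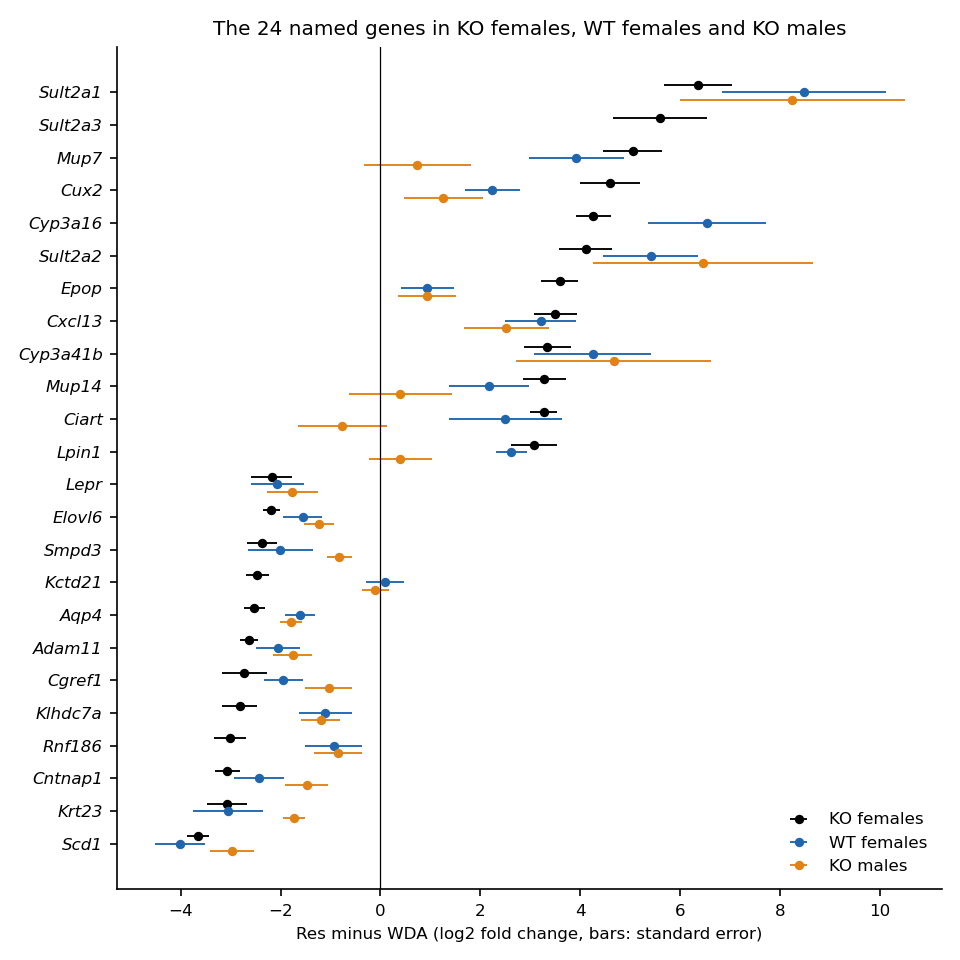
Log2 fold change of Res over WDA (x axis) with its standard error for the 24 named genes in KO females (black), WT females (blue) and KO males (orange), 3 mice per group. Scd1 is lowest in all 3 comparisons, and Kctd21 lies near 0 in WT females and KO males; a gene with no point was not tested there.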

How the data were processed

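RNA of whole liver was extracted with a Qiagen kit, and libraries were prepared and sequenced by BGI, from individual mice according to the study. The authors deposited 4 tables of expected counts and FPKM per gene, 1 per sex and experiment, and the submitters' processing notes name HISAT, Bowtie2 and GRCm38.p6, while the counting program's strand setting is not given in the sources used here. The deposited expected counts were rounded to whole numbers, tables were joined on gene ID, and 16182 of 17223 genes were in both female tables. Genes were kept with edgeR's filterByExpr (minimum count 10) and tested with edgeR 4.0.16 (quasi-likelihood, TMM) in R 4.3.3 on the 6 libraries, with Benjamini-Hochberg adjustment over all genes tested and a threshold of 0.05. Interactions used 12 libraries each. CPM are TMM-scaled counts. Deposited FPKM served limma 3.58.1 on log2(FPKM + 1), and DESeq2 1.42.0 was another alternative. Named genes are Kdm5b, the 12 highest and 12 lowest whose groups did not overlap (mean level 2 or more in log2 CPM, predicted and clone names left out), and for each list up to 5 members of smallest p plus its best known member, and a few of these are not reported here. The members and lists were chosen with earlier results of these data known. Cux2, Epop, S100a8 and Hspa1b did not reach 10 counts in every library, so their folds, given beside their CPM, are uncertain. On simulated counts of these libraries the main test recovered 83 of 100 genes changed by 1 and 100 of 100 changed by 2 on the log2 scale, with 7 false among 190 calls. In all simulations genes of like level shared the same spread and no library stood apart, so recovery in the real data may be lower. P-values set the difference between groups against the spread between mice within a group, and do not cover variation between experiments.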

Additional observations from a re-analysis of the deposited data

How the results depend on the processing

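Scaling by RLE or upper quartile, both count filters, and DESeq2 kept the number of genes called between 2366 and 2595. Estimating the spread from all 9 groups gave 1634 calls (703 higher, 931 lower) and from the 5 female groups 1328 (612 higher, 716 lower). Library totals gave 934 higher (35.5%) and 1699 lower, and limma on FPKM 850 higher (34.6%) and 1607 lower. Leaving out 1 mouse gave 1026 to 2292 calls (575 to 1175 higher, 451 to 1182 lower), with 1026 without Res mouse 4, 1337 without Res mouse 2 and 1624 without Res mouse 3. The cause of these moves was not tested. All 203 named genes that were called kept their sign under the alternatives run, and 68 kept their call under every one that tested them. Of 24 that were not called, 4 turned sign: Hmgcs1 (-0.027 with library totals, -0.0583 in limma, and -0.18 to 0.199 with 1 mouse left out, the lowest without Res mouse 3), Col1a2 (-0.059 with library totals, -0.0402 in limma, -0.0202 to 0.0767 with 1 mouse left out, and -0.0061 without WDA mouse 2), Col1a1 (-0.095 to 0.339 with 1 mouse left out, and -0.0075 without WDA mouse 2) and Fasn (-0.0205 to 0.325 with 1 mouse left out).

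With the mouse number as a replicate block, 1707 genes were called, 987 higher and 720 lower. The numbers did not pair the mice: deviations from the group means correlated at -0.027 for mouse 2 and 0.0883 for mouse 3, against -0.0852 to 0.11 for mice of unlike number. DESeq2 called 1 gene for genotype by stage and 91 for sex by stage, and a spread shared by all 9 groups called 1 for genotype by stage. Without 1 mouse these tests called 0 to 1 and 0 to 12 genes. In alternatives added after seeing the data, DESeq2 called 387 genes in WT females and 79 in KO males, and leaving out 1 mouse 0 to 15 and 0 to 10.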

Other observations

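Some lists outside the programs above showed few calls. Of 29 tested splicing factors and CLK kinases, 4 were higher and 2 lower in Res (median 0.05), and of 21 retinoid genes 2 were higher and 2 lower (median -0.02). Of 6 tested KDM5 family members and other H3K4 demethylases, 1 was higher and 1 lower (median -0.11).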
